A study of Mus musculus with 72 samples.

Results

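The comparison described here asks in which genes the liver's response to a high-fat diet (HFD) differed between C57BL/6J (B6J) and 129P2/OlaHsd (129) mice. It is the diet effect in B6J (HFD minus control) minus the diet effect in 129, computed for each of the 19938 genes that had a probe set with a single gene symbol. It rests on 30 of the 72 liver arrays in the study: 7 B6J HFD, 8 B6J control, 7 129 HFD and 8 129 control arrays, chosen by sample title. The other 42 arrays came from C57BL/6NTac (B6N) and C3HeB/FeJ (C3H). They entered the shared estimate of each gene's spread, the choice of a gene's brightest probe set, fits under other settings and 1 paragraph on Apoa4. All mice were wild-type, singly housed males, sampled random-fed. HFD mice of both strains were 17 weeks old and had eaten the HFD for 21 days. The B6J controls were labelled 15 to 17 weeks old and the 129 controls 17 weeks, so age went partly with diet in B6J. The B6N and C3H controls were labelled 15 to 17 weeks old and their HFD mice 17 weeks, after 21 days of HFD. Age thus went partly with diet in B6N and C3H too. The treatment label of the controls reads none, while the protocol names a low-fat diet for at most 21 days, so the controls' diet is known only as far as that. The labels do not say which mice shared a litter, so p-values reflect only how far these samples spread.

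A diet rich in fat loads the liver with fatty acids faster than it burns or exports them, and hepatocytes store the surplus as triglyceride. The fatty acids activate the nuclear receptor PPARα, which drives genes of fatty acid oxidation, while insulin and cholesterol sensors (SREBP factors) set the genes of lipid synthesis. Inbred strains differ in how much fat they gain on such a diet, and apolipoproteins, fatty acid carriers and transporters are among the genes through which the liver handles the load.

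The arrays gave log2 expression values, so 1 unit is a doubling, and the values of the strains lay on different scales. Array medians were 4.51 to 4.62 in B6J and 6.46 to 6.65 in 129, so levels were not compared between strains, only differences within a strain. A scale that compresses differences in 1 strain would alter the size of an interaction and could alter its sign, though not the sign of either diet effect. The hepatocyte genes Alb, Apoa1, Apob and Ttr lay above the 99.5th percentile of genes on all 30 arrays. Correlations of arrays within a group ran from 0.9371 to 0.9954 over the series, and no columns were identical. The first component of the B6J arrays' deviations from the group means held 33.1% of that variance. By the sign of their loading on it, the B6J arrays were divided into 2 sets. These were HFD 1 to 5 with controls 1 to 4, and HFD 6 and 7 with controls 5 to 8. Loadings ran from −0.31 to −0.04 in the first set and from 0.09 to 0.52 in the second, so no wide gap parts them. The sets were drawn from these same values, and the labels name no batch. Among the 129 arrays, control 6 stood apart on the same kind of component, with a loading of 0.83, an array median of 6.65 and the lowest hepatocyte marker mean of its group. The main results are therefore also given within these sets and without that array.

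Apoa4 was the 1 gene whose diet effect differed between the strains at a Benjamini-Hochberg adjusted p under 0.05 in limma, 0.00502% of the genes tested. It encodes apolipoprotein A-IV, a lipid-binding protein of chylomicrons and high-density lipoproteins that mouse liver makes as well as intestine. In B6J its log2 value had a lowest, median and highest of 10.554, 11.004 and 11.282 in the 7 HFD livers, against 9.03, 9.16 and 9.50 in the 8 controls. Every B6J HFD liver lay above every B6J control. In 129 the values were 13.34, 13.53 and 13.87 in the 7 HFD livers and 13.06, 13.32 and 13.44 in the 8 controls, and the groups overlapped. The diet effect was 1.68 ± 0.16 (log2, SE) in B6J, a 3.205-fold rise with an adjusted p of 4.12e-12 in limma. In 129 it was 0.24 ± 0.16, or 1.18-fold, with an adjusted p of 0.996. The difference of the effects was 1.44 ± 0.22, with a 95% interval from 0.997 to 1.883 and an adjusted p of 0.000213, so the fold change in B6J was 2.71 times that in 129. Leaving out each of the 30 arrays in turn gave differences of 1.376 to 1.498, all called. Without 129 control 6 it was 1.45 (adjusted p 0.000342). With only the larger set of B6J arrays (5 HFD and 4 control) it was 1.54 (adjusted p 0.00335), and with only the smaller (2 HFD and 4 control) it was 1.18 and no longer called (adjusted p 1).

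**Figure D1:**
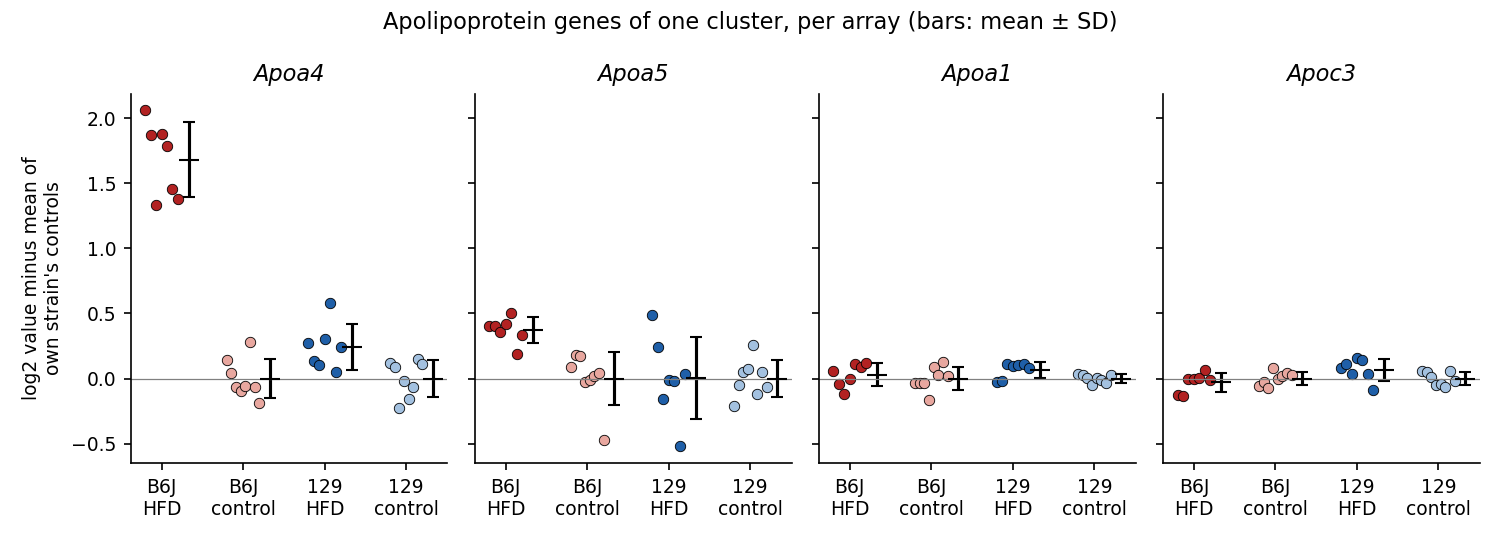
Log2 value of each array minus the mean of its own strain's controls, for Apoa4 and the neighbouring genes Apoa5, Apoa1 and Apoc3; points are arrays and bars the group mean ± SD (7, 8, 7 and 8 arrays). For Apoa4 the B6J HFD arrays lie clear of all others, while for Apoa1 and Apoc3 all 4 groups lie on the zero line within their spread.

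Apoa4 was among the brighter genes on the arrays of both strains. In B6J it stood at the 98.7th percentile of genes in HFD livers and at the 95.2nd in controls. In 129 it stood at the 99.8th percentile in HFD livers and the 99.7th in controls. These percentiles describe each strain's own arrays and were not tested between strains. Near the top of the scale a rise can be compressed, so the diet effects of other genes at that level were set beside it. In 129, 127 other genes lay within 0.5 log2 of the Apoa4 control mean. Their diet effects ran from −1.06 to 0.32 and 3 were called. A further description is that 65 genes were brighter still in 129 controls, with effects from −1.06 to 0.10 and 1 call. In B6J, 684 genes lay within 0.5 of Apoa4's control mean, with effects from −0.94 to 0.99, and Apoa4 at 1.68 lay outside that range. The highest value of any probe set was 14.43 to 14.66 on the 129 arrays and 14.04 to 14.37 on the B6J arrays. The Apoa4 control mean was 13.29 in 129 and 9.22 in B6J. A rise of 1.68 from that 129 mean would end above every value on the 129 arrays. Whether compression lowered the Apoa4 effect in 129 was not tested.

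Apoa4 lies on chromosome 9 in a cluster with Apoa1, Apoc3 and Apoa5. Apoa1 encodes the main protein of high-density lipoproteins, Apoc3 an inhibitor of lipoprotein lipase action, and Apoa5 an activator of it. The Apoa1 effect was 0.03 ± 0.07 in B6J and 0.07 ± 0.07 in 129, a difference of −0.04 with an interval from −0.22 to 0.15. The Apoc3 effect was −0.03 ± 0.07 in B6J and 0.07 ± 0.07 in 129, a difference of −0.09 with an interval from −0.28 to 0.09. With each array scaled to a common interquartile range, these 2 differences were 0.23 and 0.14, so their sign depends on the scaling. Apoa5 reached 10.72, 10.93 and 11.03 (lowest, median, highest) in B6J HFD livers, against 10.06, 10.56 and 10.71 in B6J controls. The groups did not overlap, although the effect of 0.37 ± 0.11 was not called in limma (adjusted p 0.147). In 129, Apoa5 had an effect of 0.01 ± 0.11. Its difference between strains, 0.37 with an interval from 0.07 to 0.66, was not called (adjusted p 0.999). The neighbours of Apoa4 were thus measured at differences of less than 0.67 at the upper end of each interval in the fit as described, below the 0.997 at the lower end for Apoa4.

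The promoters of Apoa4 and of its neighbour Apoa1 are printed because the first gene was called and the second was not. Each run is the 250 bases before the RefSeq transcription start on the plus strand (build GRCm38.p6, chr9:46240594-46240843 for Apoa4 and chr9:46228380-46228629 for Apoa1). This is the C57BL/6J genome, and a 129 allele was not used here. Capitals mark a match to the HNF4-type motif CAAAGTNCA, searched on both strands as TGNACTTTG on the other. The motif was chosen after the sequences had been seen, so a match in 1 window and not the other can come from that choice. Only this string was searched, and sites of the same type that depart from it are not marked in either window.
Apoa4: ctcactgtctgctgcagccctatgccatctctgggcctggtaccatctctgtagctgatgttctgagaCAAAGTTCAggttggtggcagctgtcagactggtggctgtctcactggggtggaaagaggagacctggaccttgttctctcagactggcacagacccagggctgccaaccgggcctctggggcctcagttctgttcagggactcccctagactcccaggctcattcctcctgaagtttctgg
Apoa1: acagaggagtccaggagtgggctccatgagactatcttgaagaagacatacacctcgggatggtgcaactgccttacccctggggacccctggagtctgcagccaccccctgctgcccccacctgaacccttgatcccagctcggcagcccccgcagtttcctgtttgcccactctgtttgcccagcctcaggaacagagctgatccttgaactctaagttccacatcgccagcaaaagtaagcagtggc
The Apoa4 window held 1 match, with its first base at position -182 from the start, and the Apoa1 window held 0. Of 32851 RefSeq promoters, 392 (1.19%) held the motif in the same 250 bases. A match is a run of letters in this window and is not evidence of binding.

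Set beside the other strains of the study, the Apoa4 effect of 0.24 in 129 was the smallest point estimate of the 4. The diet effect was 2.24 ± 0.15 in B6N and 1.30 ± 0.13 in C3H. The B6N effect exceeded the 129 effect by 1.995 ± 0.219 (adjusted p 2.82e-09 in limma) and the C3H effect exceeded it by 1.05 ± 0.20 (adjusted p 0.00626). B6J differed from B6N by −0.56 and from C3H by 0.39, neither called (adjusted p 1 and 0.998). These comparisons reuse the 129 or the B6J arrays and are not separate evidence for the difference between B6J and 129.

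The genes called for a diet effect mostly had the same sign in B6J and 129, and none but Apoa4 passed the test of the difference. The diet effect was called for 59 genes in B6J (0.296% of genes tested), 26 higher (0.13%) and 33 lower (0.166%). It was called for 115 genes in 129 (0.577%), 88 higher (0.441%) and 27 lower (0.135%). These shares of all genes are the ones to set beside each count of called list members below. With quantile normalisation of all arrays the split in 129 was 73 higher and 54 lower, and with interquartile range scaling it was 31 and 29, so the balance of rises and falls depends on the scaling. Leaving out 1 array moved the B6J count to between 38 (without B6J control 5) and 64 and the 129 count to between 69 (without 129 HFD 6) and 158. Without 129 control 6, which stood apart, the 129 count was 119 (80 higher and 39 lower). With only the larger or only the smaller set of B6J arrays the B6J count was 19 or 2. With the set as a block it was 50. Of 21 genes called in B6J whose effects are given by value here, 21 remained called with the block, 10 with the larger set and 2 with the smaller (Apoa4 and Gsta4). A total of 18 genes were called in both strains, which is 18 of the 59 and 18 of the 115, and all 18 had the same sign in both. Of the 59 genes called in B6J, 57 had the same sign in 129, and of the 115 called in 129, 105 had the same sign in B6J. Over all genes 56.6% had the same sign. Across genes, the effects of the strains had a Pearson correlation of 0.39 and a Spearman correlation of 0.23 (19938 genes). Over the 156 genes called in either strain the correlations were 0.74 and 0.67, as a description, since genes share arrays and are not independent replicates.

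**Figure D2:**
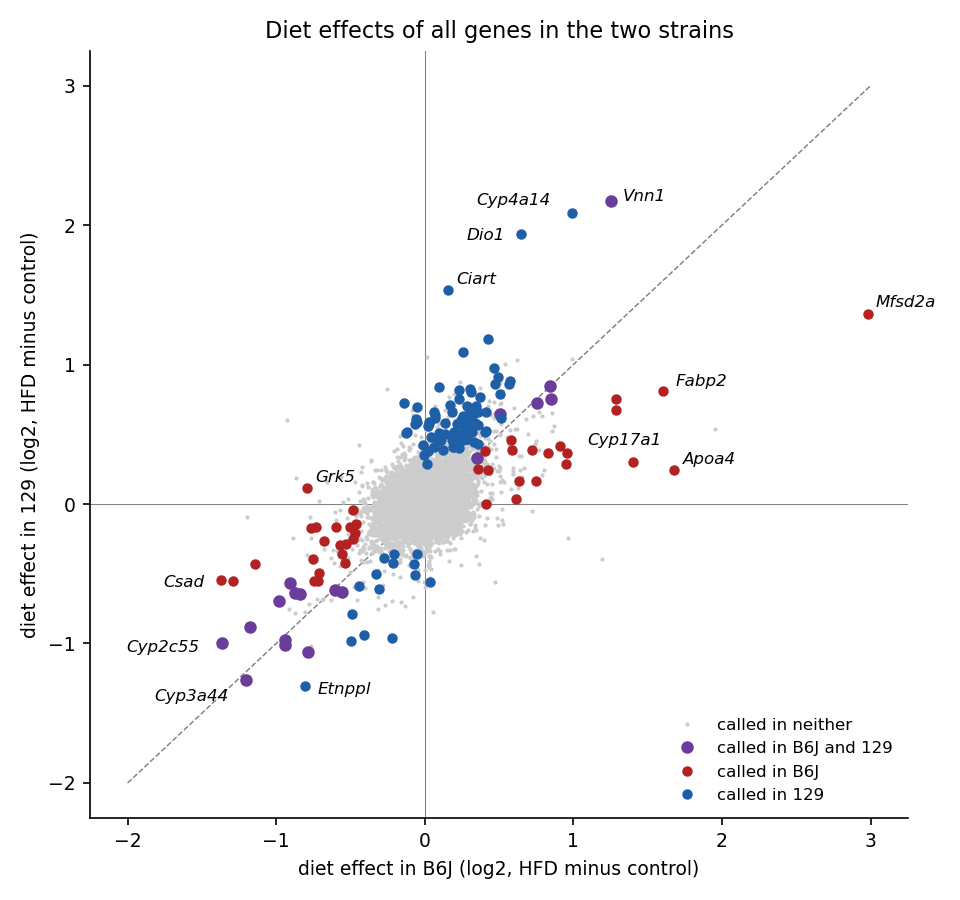
Diet effect (log2, HFD minus control) of each of 19938 genes in B6J (horizontal) and in 129 (vertical), coloured by the strain in which it was called at an adjusted p under 0.05; the dashed line marks equal effects. Most called genes lie in the upper right and lower left, and Apoa4 lies far to the right near an effect of 0.24 in 129.

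The genes called in B6J had a median absolute effect of 0.75 in B6J, and in 129 a median of 0.42 in the direction of the B6J change. Those called in 129 had a median of 0.61 in 129 and 0.28 in B6J. Each median is largest in the strain that chose the genes, which the choice itself favours. The 95% interval of the difference included 0 for 35 of the 59 and for 73 of the 115. At an unadjusted p under 0.05 the difference counted 584 genes (2.93% of those tested), 296 with a higher effect in B6J (1.48%) and 288 with a lower one (1.44%). That is below the 5% that an unadjusted p under 0.05 passes where there is no difference. The count depends on the fit. It was 306 with quantile normalisation of all arrays and 914 with the 30 arrays of these strains fitted alone. With array weights it was 1325 and with the replicate number as a block 1328, both above 5% of the genes. The median half-width of the interval was 0.31, and for 98.8% of the genes the whole interval lay within 1 log2 unit of 0, that is, within a 2-fold difference of the fold changes. For 84.7% it lay within a 1.5-fold difference.

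Transport and uptake genes held the biggest rises in B6J. Mfsd2a encodes a transporter of lysophosphatidylcholine carrying long-chain fatty acids. It had 8.66, 9.26 and 9.72 (lowest, median, highest) in B6J HFD livers, against 5.37, 6.12 and 7.22 in B6J controls. The B6J groups were wide apart, and the effect of 2.98 ± 0.41, or 7.89-fold, was the largest called in the strain (adjusted p 1.83e-06 in limma). In 129 it had 9.78, 11.12 and 11.51 in HFD livers, against 7.97, 9.17 and 11.24 in controls. These overlapped, and the effect of 1.36 ± 0.41 was not called (adjusted p 0.139). The difference of 1.62 had an interval from 0.45 to 2.78 and was not called (adjusted p 0.999), with a point estimate above that of Apoa4 and an SE of 0.58 beside 0.22. Fabp2 encodes the intestinal-type fatty acid-binding protein. Its effect was 1.61 ± 0.24 in B6J (adjusted p 9.65e-06) and 0.81 ± 0.24 in 129 (adjusted p 0.112), and the difference of 0.79 was not called (interval 0.12 to 1.47). In 129 the Fabp2 values were 10.38, 10.73 and 11.02 in HFD livers and 9.78, 9.87 and 10.10 in controls, with no overlap. Besides Apoa4, Mfsd2a and Fabp2, none of the 23 measured genes on the list for fatty acid uptake and lipoproteins was called in B6J, and none was called in 129. The median effect of these genes was 0.05 in B6J and 0.13 in 129, beside 0.00 for all genes in each strain. The list's genes and all others were listed with earlier results of these data known.

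Synthesis genes had a higher median effect in B6J than in 129, with few calls. Of 25 measured genes of fatty acid and triglyceride synthesis, 1 was called higher in B6J and 1 lower in 129, and the median effect was 0.17 in B6J and 0.02 in 129. The called rise in B6J was that of Fads2, the delta-6 desaturase of polyunsaturated fatty acids. Its values were 11.48, 11.90 and 12.11 in B6J HFD livers, against 10.45, 10.95 and 11.24 in B6J controls, an effect of 0.96 ± 0.19 (adjusted p 0.00297). In 129 the Fads2 effect was 0.36 ± 0.19, and the difference, 0.59 with an interval from 0.06 to 1.13, was not called. The gene of the list with the smallest p for the difference was Elovl5, an elongase that acts in the same pathway. Its effect was 0.53 ± 0.16 in B6J and −0.14 ± 0.16 in 129, neither called, and their difference of 0.67 had an adjusted p of 0.999. With arrays weighted by their quality it was 0.80 and called (adjusted p 0.0278). The 1 called fall in 129 was that of Acss2, which makes acetyl-CoA from acetate. Of 20 genes of cholesterol synthesis none was called in either strain. Their median effect was −0.17 in B6J and −0.24 in 129, and the difference with the smallest p was 0.28 for Pmvk, phosphomevalonate kinase (interval −0.13 to 0.70).

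**Figure D3:**
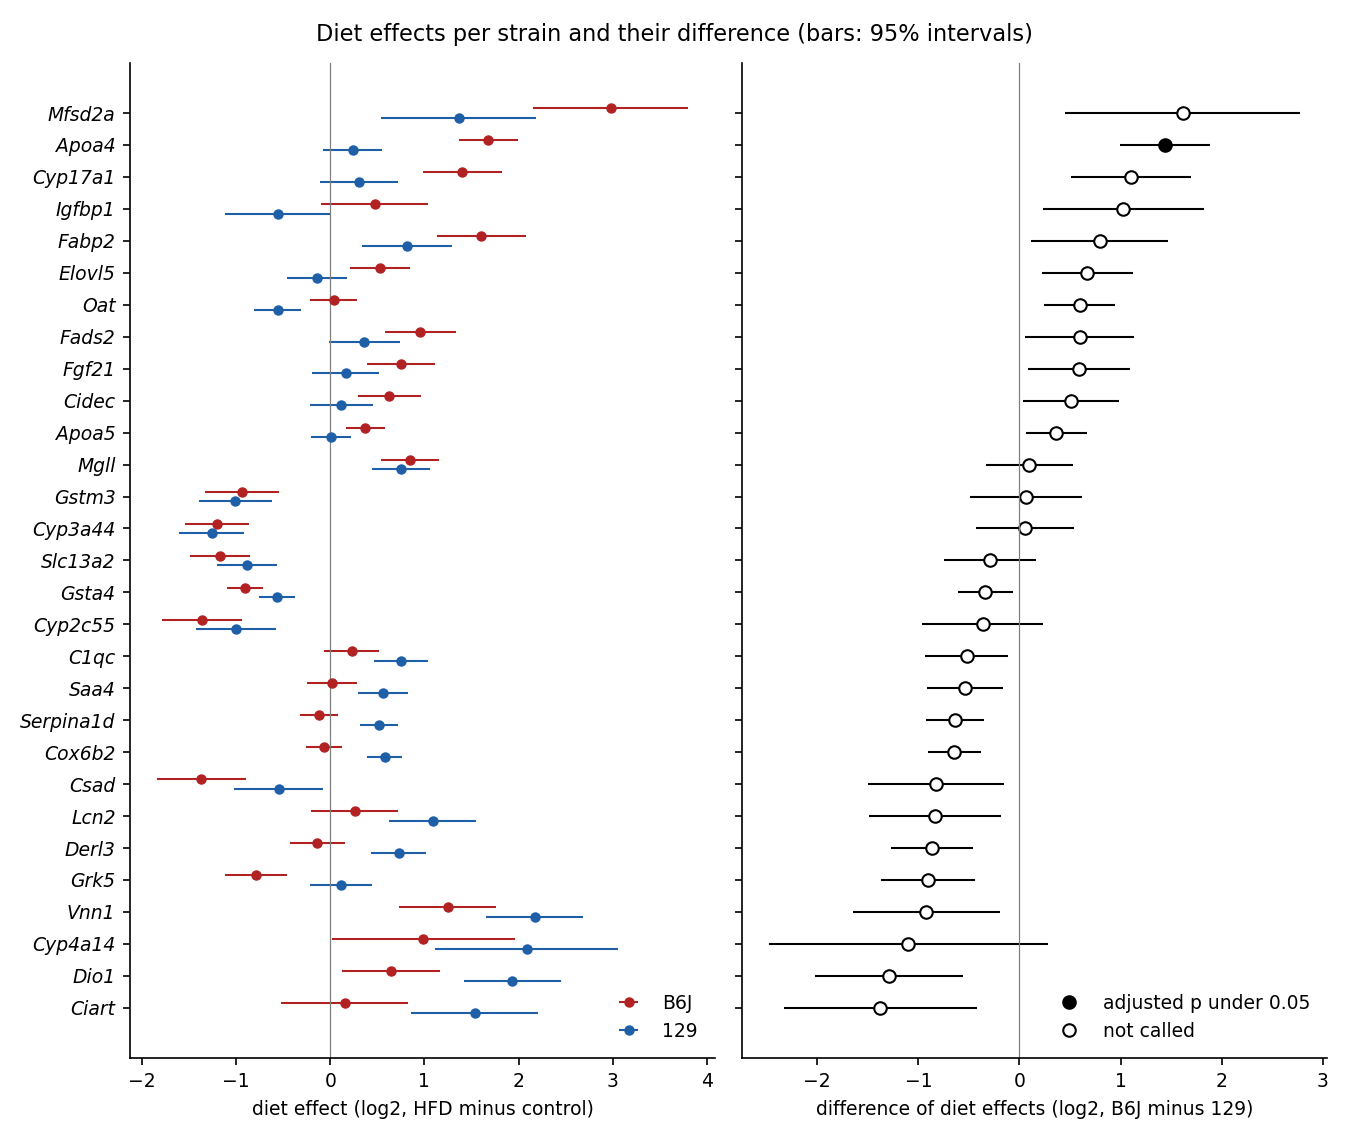
Diet effects in B6J and 129 (left, log2) and their difference (right, log2, B6J minus 129) with 95% intervals for 29 named genes, ordered by the difference. Filled points on the right mark an adjusted p under 0.05, which Apoa4 alone has, and open points mark genes that were not called.

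Some genes on the fatty acid oxidation list were called higher in each strain, and Vnn1 alone was called in both. Over all genes tested, 0.13% were called higher in B6J and 0.441% in 129. Of 31 measured genes of oxidation and ketogenesis, 4 were called higher in B6J (Bdh1, Vnn1, Fgf21 and Slc25a47) and 5 in 129 (Slc25a20, Eci2, Cyp4a14, Cyp4a31 and Vnn1). None was called lower in either strain. The median effect was 0.22 in B6J and 0.25 in 129, and 29 of the 31 had the same sign in both. Vnn1 encodes pantetheinase, a target of PPARα that releases vitamin B5 from a coenzyme A breakdown product. It had 7.98, 9.05 and 9.76 in B6J HFD livers, against 6.93, 7.83 and 8.62 in B6J controls, with some overlap. In 129 it had 9.33, 10.48 and 11.03 in HFD livers, against 7.18, 8.27 and 8.97 in controls, with none. The effect was 1.25 ± 0.26 in B6J (adjusted p 0.0053) and 2.17 ± 0.26 in 129 (adjusted p 6.12e-08), and the difference of −0.92 with an interval from −1.65 to −0.19 was not called (adjusted p 0.999).

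Cyp4a14, which hydroxylates fatty acids at their far end and is another PPARα target, varied widely within groups. It had 8.91, 10.09 and 11.04 in B6J HFD livers, against 7.16, 9.31 and 10.78 in B6J controls. In 129 it had 10.53, 12.37 and 13.41 in HFD livers, against 7.38, 10.36 and 12.07 in controls. The groups overlapped in both strains. Its effect was 0.99 ± 0.49 in B6J (adjusted p 0.861) and 2.09 ± 0.49 in 129 (adjusted p 0.0156), and the difference of −1.10 had an interval from −2.48 to 0.28. The call in 129 was lost without any one of control 6, control 7, HFD 1 or HFD 2, where the effect was 1.73 to 1.86 (adjusted p up to 0.0799). It was also lost with interquartile range scaling (adjusted p 0.0514) and with the 30 arrays of these strains fitted alone (adjusted p 0.115). Eci2, an auxiliary enzyme for unsaturated fatty acids, was higher by 0.35 ± 0.11 in B6J (adjusted p 0.231) and rose by 0.57 ± 0.11 in 129 (adjusted p 0.00157). With interquartile range scaling the Eci2 effect in 129 was 0.40 and not called (adjusted p 0.688). Fgf21 encodes a hormone that liver releases under PPARα control. It rose by 0.75 ± 0.18 in B6J (adjusted p 0.0341) and had an effect of 0.16 ± 0.18 in 129, with a difference of 0.59 that was not called. The B6J call of Fgf21 was lost without any single B6J array but control 6 and HFD 3 (effect 0.68 to 0.76, adjusted p up to 0.145), and with interquartile range scaling (adjusted p 0.102).

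Of 18 peroxisomal genes, 2 were called higher in B6J (Pex11a and Abcd2) and 2 in 129 (Decr2 and Ech1), with a median effect of 0.11 in B6J and 0.18 in 129. The difference with the smallest p was −0.24 for Acox2, the branched-chain acyl-CoA oxidase (interval −0.58 to 0.09). Among 20 lipid droplet proteins, the lipase gene Mgll was the 1 call in each strain. It rose by 0.85 ± 0.15 in B6J (adjusted p 0.000539) and by 0.75 ± 0.15 in 129 (adjusted p 0.00327), a difference of 0.10 with an interval from −0.33 to 0.53. Cidec, which enlarges lipid droplets, had 4.80, 5.64 and 6.18 in B6J HFD livers, against 4.89, 4.94 and 5.28 in B6J controls. Its effect was 0.63 ± 0.17 in B6J and 0.12 ± 0.17 in 129, neither called, and the difference of 0.51 (interval 0.03 to 0.99) was not called.

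Of the 12 genes called lower in both strains, 7 were glutathione transferases or cytochrome P450 enzymes, which detoxify drugs and reactive products. The 2 lists that hold them had 32 and 26 measured genes. Over all 19938 genes, 0.166% were called lower in B6J and 0.135% in 129. These lists were chosen with earlier results of these data known, and probe sets of close relatives among the 7 can share signal. Of 32 genes of glutathione and antioxidant defence, 5 were called lower in B6J (Gsta4, Gstm3, Gstm4, Gstm6 and Gstp1) and 4 in 129 (the same without Gstp1), and none was called higher. The median effect was −0.10 in each strain. Gsta4, a glutathione transferase acting on lipid peroxidation products, had 9.01, 9.18 and 9.76 in B6J HFD livers, against 10.03, 10.17 and 10.40 in B6J controls. In 129 it had 10.94, 11.30 and 11.44 in HFD livers, against 11.63, 11.88 and 12.06 in controls. Neither strain's groups overlapped. Gsta4 fell by 0.91 ± 0.10 on the log2 scale in B6J (adjusted p 5.75e-10) and by 0.57 ± 0.10 in 129 (adjusted p 0.000227). The difference of −0.34 had an interval from −0.61 to −0.06 and was not called. Gstm3 fell by 0.94 ± 0.20 in B6J (adjusted p 0.00583) and by 1.01 ± 0.20 in 129 (adjusted p 0.00209). Its second probe set gave −1.70 in B6J and −1.67 in 129, so the size of the fall depends on the probe set while the difference stayed near 0 with either. Gstp1 fell by 0.68 ± 0.13 in B6J (adjusted p 0.00261) and had an effect of −0.26 ± 0.13 in 129 (adjusted p 0.937), with a difference of −0.42 that was not called (interval −0.80 to −0.04). With interquartile range scaling the Gstp1 effect in B6J was −0.63 and not called (adjusted p 0.382).

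Among 26 cytochrome P450 genes of drug metabolism, Cyp2c55, Cyp3a11 and Cyp3a44 were called lower in B6J and also in 129. Cyp3a44 had 6.18, 6.39 and 6.81 in B6J HFD livers, against 7.30, 7.70 and 8.03 in B6J controls. Among 129 livers it had 6.55, 7.12 and 8.10 in HFD livers, against 8.26, 8.53 and 8.89 in controls. The groups did not overlap in either strain. The effect was −1.20 ± 0.17 in B6J (adjusted p 4.19e-06) and −1.26 ± 0.17 in 129 (adjusted p 2.15e-06), and the difference of 0.06 had an interval from −0.43 to 0.54. Cyp2c55 fell by 1.36 ± 0.21 in B6J (adjusted p 2.26e-05) and by 0.999 ± 0.21 in 129 (adjusted p 0.00537). The 129 call of Cyp2c55 was lost with quantile normalisation (effect −0.70, adjusted p 0.117) and with interquartile range scaling (effect −0.86, adjusted p 0.0776), so its place among the genes called in both strains depends on the scaling. Its level in 129 lay below the array median in both groups, where background sets part of the value. In B6J HFD livers every array but HFD 5 (5.317) had 4.545 or less, beside array medians of 4.51 to 4.62 in B6J, so the same limit holds there. Cyp3a11, the main P450 of its family in mouse liver, fell by 0.79 ± 0.19 in B6J (adjusted p 0.0343) and by 1.06 ± 0.19 in 129 (adjusted p 0.000481). The B6J call of Cyp3a11 was lost without any 1 of 12 B6J arrays, all but control 6, HFD 3 and HFD 5 (adjusted p up to 0.0884), and with interquartile range scaling (adjusted p 0.823). Probe sets of close family members, such as those of Cyp3a and Gstm, can share signal, so their values are not independent. The median effect over the 26 genes was −0.28 in B6J and −0.08 in 129. The difference with the smallest p was −0.35 for Cyp2f2 (interval −0.82 to 0.11).

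Other genes that fell in both strains were Ces2a, a carboxylesterase, Ethe1, an enzyme of the sulfide oxidation pathway, and Slc13a2, a transporter of citrate and succinate. Ces2a fell by 0.98 ± 0.11 in B6J (adjusted p 8.65e-09) and by 0.69 ± 0.11 in 129 (adjusted p 0.000166). Ethe1 fell by 0.87 ± 0.14 in B6J (adjusted p 6.38e-05) and by 0.64 ± 0.14 in 129 (adjusted p 0.00926). Slc13a2 fell by 1.17 ± 0.16 in B6J (adjusted p 1.45e-06) and by 0.88 ± 0.16 in 129 (adjusted p 0.000666). Each of the 3 differences had an interval that included 0.

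Amino acid genes were called lower in each strain. Of 30 genes that degrade amino acids or belong to the urea cycle, 3 were called lower in B6J (Hal, Csad and Ddc) and 3 in 129 (Etnppl, Ddc and Oat), and none was called higher. The median effect was −0.13 in B6J and −0.11 in 129. Csad, which makes the taurine precursor hypotaurine, had 7.68, 8.76 and 9.08 in B6J HFD livers, against 9.45, 9.93 and 10.35 in B6J controls. It fell by 1.37 ± 0.24 in B6J (adjusted p 0.00028) and had an effect of −0.55 ± 0.24 in 129 (adjusted p 0.695), and the difference of −0.82 was not called (interval −1.49 to −0.15). Etnppl, which breaks down phosphoethanolamine, had an effect of −0.80 ± 0.22 in B6J (adjusted p 0.117) and fell by 1.30 ± 0.22 in 129 (adjusted p 0.000199). Oat, ornithine aminotransferase, had 11.49, 11.68 and 11.95 in B6J HFD livers, against 11.47, 11.60 and 11.90 in B6J controls. The 129 livers had 11.91, 12.29 and 12.97 in HFD livers, against 12.61, 12.98 and 13.36 in controls. The effect was 0.04 ± 0.12 in B6J and −0.56 ± 0.12 in 129 (adjusted p 0.00923), and the difference of 0.59 had an interval from 0.24 to 0.94 and an adjusted p of 0.999. Without 129 HFD 3 the Oat effect in 129 was −0.47 and not called (adjusted p 0.0733).

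Hormone and clock genes held 2 of the 5 largest effects called in 129. Dio1, the type 1 deiodinase that activates thyroid hormone, had 7.84, 8.83 and 9.09 in B6J HFD livers, against 7.76, 8.07 and 8.35 in B6J controls. Values in 129 were 9.85, 10.90 and 11.43 in HFD livers, against 6.94, 9.31 and 10.05 in controls. Its effect was 0.65 ± 0.26 in B6J (adjusted p 0.653) and 1.93 ± 0.26 in 129 (adjusted p 1.84e-06), and the difference of −1.29 (interval −2.02 to −0.56) had an adjusted p of 0.999. Serpina7, the thyroid hormone-binding globulin of plasma, rose by 1.29 ± 0.27 in B6J (adjusted p 0.0053) and had an effect of 0.67 ± 0.27 in 129 (adjusted p 0.527). These were the 2 calls among 12 genes of thyroid hormone handling and response, 1 in each strain. The list's median effect was 0.05 in B6J and 0.06 in 129.

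Of 17 clock genes, 3 were called higher in 129 (Ciart, Per2 and Per3) and none in B6J, with a median effect of 0.03 in B6J and 0.24 in 129. Ciart encodes a repressor of the clock's positive arm. It had 3.83, 4.73 and 5.12 in B6J HFD livers, against 4.25, 4.46 and 4.71 in B6J controls. Relative to the array median, the Ciart means in B6J were 0.07 on HFD and −0.07 in controls, where background sets part of the value. Whether background lowered the Ciart effect in B6J was not tested. For 129 the values were 8.09, 8.90 and 10.13 in HFD livers, against 6.26, 6.73 and 9.45 in controls, and some 129 controls lay within the HFD range. The effect was 0.16 ± 0.34 in B6J and 1.53 ± 0.34 in 129 (adjusted p 0.00815), and the difference of −1.38 was not called (interval −2.33 to −0.42). The second Ciart probe set gave 0.37 in B6J and 1.03 in 129, a difference of −0.66. Per2 and Per3, negative arm components of the clock, had effects of 0.28 ± 0.14 and 0.49 ± 0.22 in B6J. In 129 they rose by 0.59 ± 0.14 (adjusted p 0.0208) and 0.91 ± 0.22 (adjusted p 0.0254). Omitting 129 control 6 or 8, or 129 HFD 2, 3 or 5, ended the Per2 call, and omitting 129 control 4, 6, 7 or 8, or 129 HFD 1, 2 or 3, ended the Per3 call (adjusted p up to 0.0894 and 0.144). Both calls were also lost with interquartile range scaling (adjusted p 0.0836 for Per2 and 0.106 for Per3) and with the 30 arrays alone (0.0522 and 0.0854).

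Cyp17a1, the steroid 17α-hydroxylase, on the list of genes with higher levels in female liver, had 7.42, 7.73 and 8.53 in B6J HFD livers, against 6.04, 6.48 and 6.84 in B6J controls. These did not overlap. The corresponding 129 values were 10.89, 11.61 and 12.31 in HFD livers, against 9.96, 11.24 and 12.41 in controls. The effect was 1.40 ± 0.21 in B6J (adjusted p 1.05e-05) and 0.30 ± 0.21 in 129 (adjusted p 0.996), and the difference of 1.098 (interval 0.51 to 1.69) had an adjusted p of 0.68. The 17 female-biased genes had a median effect of 0.04 in B6J and −0.03 in 129, with 2 called higher and 1 lower in B6J and 1 lower in 129. The 21 male-biased genes had a median effect of −0.26 in B6J and −0.03 in 129, with Gstp1 the 1 call, lower in B6J. Their difference with the smallest p was −0.75 for Selenbp2, a selenium-binding protein (interval −1.42 to −0.09, not called).

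In the glucose and insulin list of 20 genes none was called. Igfbp1, a binding protein of insulin-like growth factors that insulin lowers, had the smallest p for the difference. Its effect was 0.47 ± 0.28 in B6J and −0.56 ± 0.28 in 129, with overlap in both strains, and the difference of 1.03 (interval 0.23 to 1.83) was not called. Of 19 nuclear receptor genes and 44 genes of oxidative phosphorylation none was called in either strain. Pparg, the receptor that drives fat storage, had effects of 0.24 ± 0.11 in B6J and −0.02 ± 0.11 in 129. The difference with the smallest p among the oxidative phosphorylation genes was that of Ndufs7, a subunit of complex I (−0.18, interval −0.42 to 0.06). Of 24 genes of bile acid synthesis and transport, 1 was called, Slco1a4, an uptake carrier of bile acids and drugs, which fell by 0.94 ± 0.21 in 129 (adjusted p 0.012) and had an effect of −0.41 ± 0.21 in B6J. The difference with the smallest p on that list was −0.26 for Amacr, a racemase of branched-chain acids (interval −0.55 to 0.03). Without 129 HFD 4 the Slco1a4 effect in 129 was −0.83 and not called (adjusted p 0.0527).

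**Figure D4:**
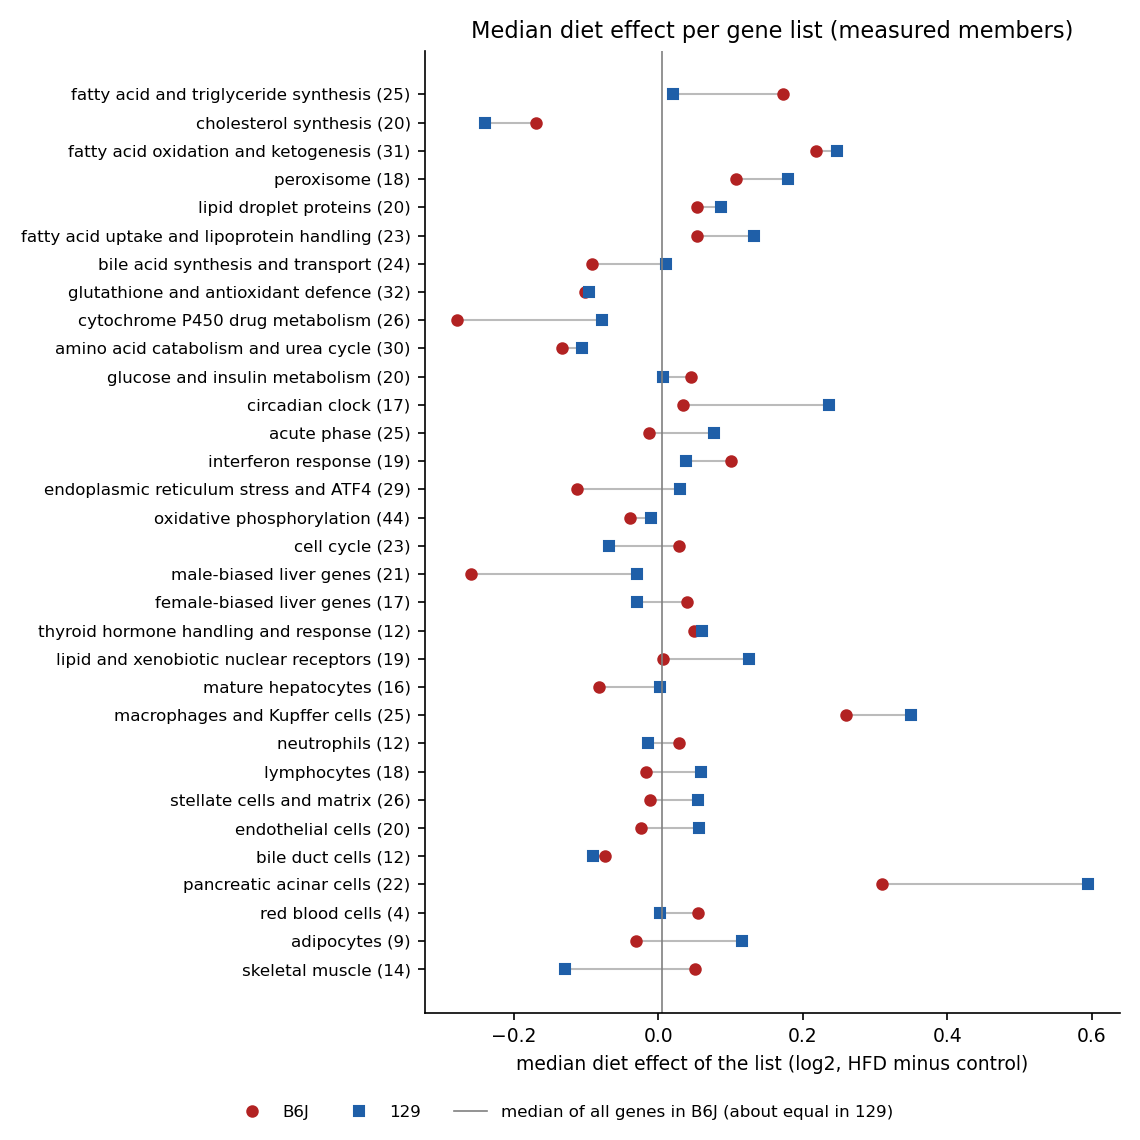
Median diet effect (log2, HFD minus control) of the measured genes of each list, number in brackets, in B6J (circles) and 129 (squares), with the median of all genes as a vertical line. The pancreatic acinar and macrophage lists lie farthest to the right.

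Few inflammatory genes were called. Of 25 acute phase genes, 1 was called lower in B6J (Orm1) and 2 higher in 129 (Saa4 and Lcn2). Orm1, orosomucoid, had 11.20, 11.45 and 11.69 in B6J HFD livers, against 11.87, 12.09 and 12.24 in B6J controls, and fell by 0.60 ± 0.12 there (adjusted p 0.0028). Its effect in 129 was −0.17 ± 0.12. Lcn2, the iron-siderophore binder lipocalin 2, had an effect of 0.26 ± 0.23 in B6J and rose by 1.09 ± 0.23 in 129 (adjusted p 0.00537). Saa4, a constitutive serum amyloid A, had an effect of 0.02 ± 0.13 in B6J and rose by 0.56 ± 0.13 in 129 (adjusted p 0.0188). Leaving out 129 control 1 or 129 HFD 3, 4 or 6 ended the Saa4 call (adjusted p up to 0.0802). With interquartile range scaling the calls of Orm1 in B6J (effect −0.56, adjusted p 1) and of Saa4 in 129 (effect 0.34, adjusted p 1) were lost. The Lcn2 call was lost with the 30 arrays alone (adjusted p 0.0506). The differences were −0.43 for Orm1, −0.83 for Lcn2 and −0.54 for Saa4, with intervals below 0, and none was called. Of 19 interferon response genes, 29 genes of endoplasmic reticulum stress and 23 cell cycle genes none was called in either strain. The members of these lists with the smallest p for the difference were Irf1, an interferon-induced transcription factor (−0.35, interval −0.79 to 0.10), Sdf2l1, a chaperone partner (−0.66, interval −1.24 to −0.08), and Ccnb2, a mitotic cyclin (0.40, interval 0.14 to 0.66).

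The mean of the macrophage markers was higher on HFD in both strains. Of 25 measured markers of macrophages and Kupffer cells, 0 were called in B6J and 6 were called higher in 129 (Adgre1, Cd68, Clec4f, Cd5l, C1qb and C1qc). The median effect was 0.26 in B6J and 0.35 in 129, 24 of the 25 had the same sign in both, and none was called for the difference. The mean of the markers above the array median was 1.68, 2.04 and 2.23 (lowest, median, highest) in B6J HFD livers, against 1.66, 1.77 and 1.96 in B6J controls. Within the larger set of B6J arrays it was 1.80 to 2.23 on HFD and 1.66 to 1.96 in controls. Within the smaller set it was 1.68 and 2.14 on HFD and 1.70 to 1.80 in controls. In 129 the marker mean was 1.42, 1.70 and 2.27 in HFD livers, against 1.17, 1.35 and 1.54 in controls. The HFD mean exceeded the control mean by 0.21 in B6J and by 0.39 in 129, with two-sided exact permutation p-values of 0.0224 and 0.00249 (0.0448 and 0.00996 after adjustment over 4 such tests). The B6J test took no account of the sets of arrays. Of the cell type lists only this one and the acinar one were tested. They were chosen with earlier results of these data known, so these p-values are not independent support. Without 129 HFD 6, the highest array, the mean in 129 was higher by 0.29 (exact permutation p 0.00533). C1qc, a chain of complement C1q made by macrophages, had an effect of 0.23 ± 0.15 in B6J and rose by 0.75 ± 0.15 in 129 (adjusted p 0.00209). The difference of −0.52 (interval −0.93 to −0.11) was not called. Cd5l, a scavenger protein of Kupffer cells, had an effect of 0.50 ± 0.16 in B6J and rose by 0.79 ± 0.16 in 129 (adjusted p 0.00394). Adgre1, the macrophage antigen F4/80, rose by 0.97 ± 0.22 in 129 (adjusted p 0.00962), but without 129 HFD 6, which had 11.11 where the next 129 HFD array had 9.002, by 0.60 and was not called (adjusted p 0.111). C1qb rose by 0.77 ± 0.18 in 129 (adjusted p 0.0206), a call that leaving out 129 control 1 or 129 HFD 1, 3 or 6 ended (adjusted p up to 0.135). With interquartile range scaling the 129 calls of Adgre1 (adjusted p 0.0531), Cd5l (0.0888), C1qb (0.167) and C1qc (0.0515) were lost, and with the 30 arrays alone that of Adgre1 (0.108). In tissue RNA, more cells of a type and more RNA per cell cannot be told apart.

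**Figure D5:**
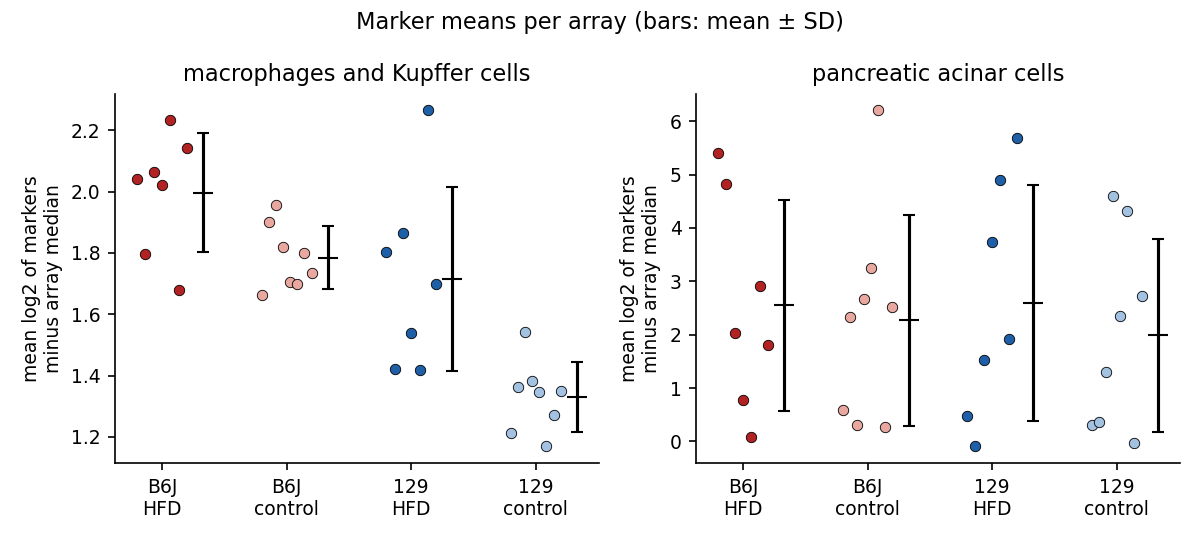
Mean log2 value of the macrophage markers (left, 25 genes) and of the pancreatic acinar markers (right, 22 genes) minus the array median, per array, with group mean ± SD. Macrophage means are higher on HFD in both strains, and acinar means spread over several log2 units in every group.

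Pancreatic acinar markers were present at varying levels in all groups. The mean of 22 such markers above the array median was 0.09 to 5.41 in B6J HFD livers and 0.27 to 6.20 in B6J controls, and −0.09 to 5.69 in 129 HFD livers and −0.03 to 4.59 in 129 controls. HFD and control means differed by 0.28 in B6J and 0.60 in 129, with exact permutation p-values of 0.779 and 0.564. With this mean as a covariate the Apoa4 difference was 1.43 and called. Hepatocyte marker means spread far less, 7.62 to 7.93 in B6J HFD livers and 7.82 to 7.97 in B6J controls, and 6.6997 to 6.8026 in 129 HFD livers and 6.31 to 6.84 in 129 controls. No marker of neutrophils, stellate cells, endothelial cells, bile ducts, red blood cells, adipocytes or skeletal muscle was called in either strain. Among 18 lymphocyte markers the 1 call was Ptprc, higher in 129, which macrophages also express. The markers with the smallest p for the difference were Mmp9 (0.17), Ms4a1 (−0.37), Acta2 (−0.58), Cd34 (−0.22), Krt18 (−0.27), Ctrc (−0.76), Slc4a1 (0.15) and Myh1 (0.36), 1 for each of 8 cell types, and none of these was called.

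Cox6b2, Serpina1d and Derl3 ranked 2, 3 and 4 by p for the difference, and Grk5 ranked 8. Serpina1d was named by rule from the hepatocyte list. That list was written with Serpina1a, Serpina1b and Serpina1c, and Serpina1d entered it when symbols were matched to the gene table. Cox6b2 and Derl3 were added after their values were seen, and so was Grk5, which was called under another setting. BC018473, Paxx, Ugt3a1 and a further probe set of Slc8a1 were also called under another setting and are not described here. Cox6b2, a subunit of cytochrome c oxidase best known from testis, had 4.26, 4.53 and 4.83 in B6J HFD livers, against 4.45, 4.58 and 4.73 in B6J controls, around the array median. In the 129 groups it was 8.25, 8.64 and 9.21 in HFD livers, against 7.90, 8.11 and 8.28 in controls. The effect was −0.07 ± 0.09 in B6J and 0.58 ± 0.09 in 129 (adjusted p 0.000142), and the difference of −0.64 ± 0.13 had an adjusted p of 0.07. It was called without any 1 of 129 control 5, 129 HFD 3, 129 HFD 6 or B6J HFD 6 (difference −0.67 to −0.72, adjusted p down to 0.00589). With all arrays kept it was called with median centring (−0.66, adjusted p 0.00972), array weights (−0.66, adjusted p 0.000534) and the first residual component as a covariate (−0.64, adjusted p 0.0482). Serpina1d, one of several near-identical α1-antitrypsin genes whose probes can share signal, had an effect of −0.12 ± 0.10 in B6J and 0.52 ± 0.10 in 129 (adjusted p 0.00209). Its difference of −0.64 ± 0.14 had an adjusted p of 0.18, and without 129 HFD 7 it was −0.71 and called (adjusted p 0.0326). With the acinar marker mean as a covariate the Serpina1d difference was −0.70 and called (adjusted p 0.00361). Its 129 diet call was lost with interquartile range scaling (effect 0.37, adjusted p 0.956). Derl3, which helps degrade misfolded proteins of the endoplasmic reticulum, had an effect of −0.14 ± 0.14 in B6J and 0.73 ± 0.14 in 129 (adjusted p 0.00279), with a difference of −0.86 (adjusted p 0.364) that array weights turned into a call (−1.01, adjusted p 0.0189). Grk5, a G protein-coupled receptor kinase, fell by 0.79 ± 0.16 in B6J (adjusted p 0.0053) and had an effect of 0.11 ± 0.16 in 129, with a difference of −0.91 (adjusted p 0.527). With the 30 arrays alone the Grk5 difference was called at the same size (−0.905, adjusted p 0.0283). In each of these 4 genes the point estimates had opposite signs in the strains, and the difference was not called in the fit as described.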

How the data were processed

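A column kit with DNase treatment gave the liver RNA, which was hybridised as labelled sense-strand cDNA to Affymetrix Mouse Gene ST arrays, per the labels' protocols. The deposited values are log2 expression values per probe set, which the authors made with RMA and, per the submitters' processing notes, Affymetrix Expression Console 1.1. Whether all arrays were normalised together is not given in the sources used here. Of 35556 probe sets, 21789 had 1 gene symbol in the platform annotation (21698 matched the gene table by identifier), 1621 had several and 12146 were not listed there. For 999 genes with more than 1 such probe set, the brightest on average was used.

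One mean per group was fitted to the 8 groups of the study (72 arrays, 64 residual degrees of freedom) in limma 3.58.1 (R 4.3.3) with moderation by eBayes. Two-sided p-values were adjusted by Benjamini-Hochberg over all 19938 genes of a contrast, and a call needed an adjusted p under 0.05. Unless named otherwise, adjusted p-values come from this limma fit, ± gives the SE, and intervals are at 95%. The fit shares 1 spread per gene over strains whose spread differs (median residual SD 0.19 in B6J, 0.17 in 129 and 0.23 in C3H). Exact permutation tests used scipy 1.17.1. Promoter sequences are RefSeq's. The script was tested on simulated data.

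Members and lists were chosen with earlier results of these data known. Named genes are those called for the difference, from each list up to 4 called members or else the one with the smallest p, and the 5 largest effects called in B6J, in 129 and in both. Others were added after their values were seen: the neighbours of Apoa4, Cox6b2 and Derl3 as next by p, Grk5 as called under another setting, and genes called in 1 or both strains. Alternatives covered normalisation, the arrays fitted, bright genes, probe sets, array weights, variance model, replicate block, covariates and leaving out each array. Arrays give no read depth, and their number limits the precision.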

Additional observations from a re-analysis of the deposited data

Results flagged for a closer look

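The Apoa4 diet effect differed between the strains by the test of the difference itself (1.4397, adjusted p 0.000213 in limma). Of 296 sets of group values tested for a single array far from the others (Dixon's criterion at 95%), 30 stood out, where chance gives about 1 in 20. Of these, 7 concerned 129 control 6, which stood apart on the first residual component too. It was the lowest 129 control for Elovl5 (11.929), Cyp2f2 (13.489), Fads2 (11.653) and the marker means of hepatocytes (6.314), stellate cells (1.253) and endothelial cells (1.736), and the highest for Slc4a1 (7.384). B6J HFD 6 was the highest for Amacr (9.675), Serpina1d (11.723) and Gstp1 (12.867) and the lowest for Slco1a4 (7.570). 129 HFD 6 was the lowest for Gsta4 (10.937) and the highest for Adgre1 (11.114). B6J HFD 5 was the lowest for Dio1 (7.844) and the highest for Cyp2c55 (5.317). B6J HFD 3 was the lowest for Lcn2 (5.004) and the hepatocyte marker mean (7.623). 129 control 5 was the highest for Ccnb2 (7.335) and the bile duct marker mean (1.186). B6J control 1 was the highest for Myh1 (4.907) and the skeletal muscle marker mean (0.840).

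Single values standing apart on other arrays were those of Sdf2l1 in 129 HFD 2 (9.082), Ccnb2 in B6J HFD 2 (4.085), the adipocyte marker mean in B6J HFD 1 (1.415), Apoa5 in B6J control 8 (10.062), Fgf21 in B6J control 6 (5.396), Per3 in B6J control 3 (4.263), the red blood cell marker mean in B6J control 7 (0.857), Grk5 in 129 control 4 (7.193) and Serpina7 in 129 control 7 (7.421).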

How the results depend on the processing

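The Apoa4 difference was called under all 11 other settings (1.29 to 1.57, adjusted p up to 0.00102) and all 30 fits without 1 array, and lost with the smaller B6J set alone (1.18, adjusted p 1; added after seeing the data, as were the other B6J set fits). Genes called for the difference numbered 1, and 2 with median centring, the 30 arrays alone, every probe set, acinar covariate or residual component, 6 with array weights, 3 with the replicate block and 0 with the smaller B6J set, where 570 had an unadjusted p under 0.05; without 1 array there were 1 to 2. B6J calls numbered 59, but 34 with interquartile range scaling, 95 with the 30 arrays alone, 129 with array weights, 112 with the block, and 19 and 2 with the larger and smaller B6J set (38 to 64 without 1 array). Calls in 129 numbered 115, but 60 with interquartile range scaling, 576 with array weights and 187 with the block (69 to 158 without 1 array). The replicate numbers were not taken to pair the samples, since the labels tie them to no shared animal, litter or batch. Of 14 same-numbered pairs, 11 correlated over 0.1 (−0.29 to 0.50), and 3 matched best with their own number. The B6J sets also follow replicate number within each diet, and what the numbers stand for was not tested. With the replicate block the Grk5 difference was called (−0.95, adjusted p 0.0251), and the 129 calls of Oat (adjusted p 0.0633), Cyp4a14 (0.0776) and Adgre1 (0.108) were lost. Differences that were not called changed sign: with interquartile range scaling Ndufs7 (0.026), Apoa1 (0.2296) and Apoc3 (0.1393), with the larger B6J set Cyp3a44 (−0.0697) and Apoa1 (6e-04), with the smaller Igfbp1 (−0.0154, beside 1.03 with all B6J arrays), Gstm3 (−0.0776) and Mgll (−0.0176), and without 1 array Gstm3 (−0.0036 to 0.1369) and Cyp3a44 (−0.0665 to 0.1919). The cause was not tested.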
